A study of Mus musculus with 10 samples.

Results

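The genes described here encode the catalytic and regulatory subunits of the protein phosphatases PP1, PP2A, PP4, PP5 and PP6 in mouse gastrocnemius muscle (GAS). They were chosen by symbol, as every gene named Ppp1, Ppp2, Ppp4, Ppp5 or Ppp6 with a suffix, and calcineurin (Ppp3) was left out. Of the 87 annotated symbols that match, 75 are among the 21098 genes of the count table, 8 of them catalytic and 67 regulatory, scaffold or inhibitor subunits. A total of 49 members had enough counts to be tested, all 8 catalytic genes and 41 of the others.

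All 10 libraries came from wild-type male C57BL/6J mice that were given the high fat diet D12492i from 9 weeks of age, for 9 weeks, and became obese (DIO). The 5 mice of the ASO group were then injected once weekly for 14 weeks with RES-010, an antisense oligonucleotide against miR-22, at 10 mg/kg, and the 5 CTRL mice with 0.9% saline, while the diet went on. The series' description gives their age at the end as 30 weeks, which is less than these intervals add up to. CTRL received no control oligonucleotide, so an effect of blocking miR-22 and an effect of injecting any oligonucleotide cannot be told apart. Whole muscle was sequenced, in which fewer cells of a type and less RNA per cell cannot be told apart either. The library totals were 1606909 to 2116720 counts in CTRL and 2239186 to 2632560 counts in the ASO group, so every ASO library was deeper. Skeletal muscle fibre markers summed to 53120 to 101700 normalized counts (CPM, counts scaled to library size) in CTRL and to 106300 to 171300 CPM in the ASO group, with 3 of 6 tested markers called higher, and Mylpf and Tnnt3 without counts. Macrophage markers summed to 260.8 to 1609 CPM in CTRL and 74.04 to 575.3 CPM in the ASO group, with 1 of 6 tested markers called lower and Adgre1 and Cd163 without counts. Of 5 tested smooth muscle and pericyte markers 1 was called higher. Of the markers tested for slow fibres (5), endothelium (5), adipocytes (6), fibroblasts (3), Schwann cells (3) and blood (3), 0 were called by edgeR, DESeq2 or limma-voom, and 3 had an unadjusted p under 0.05 in edgeR, 1 each for endothelium (higher), adipocytes and fibroblasts (lower). Over all tested genes 11.8% were called higher and 17.4% lower. The part of cell composition in the results below was not tested.

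Serine and threonine phosphatases of this family rely on few catalytic subunits and take their specificity from partners. PP1 binds regulatory proteins of many kinds, such as glycogen-targeting, myosin-targeting and inhibitor subunits, some of which join in the same complex, whereas PP2A joins its catalytic subunit to a scaffold (A) and a variable B subunit. PP4 and PP6 resemble PP2A with subunits of their own, and PP5 carries its regulatory domain in the same chain as the catalytic domain. In skeletal muscle, PP1 held on glycogen by the Ppp1r3 proteins activates glycogen synthase, and PP1 held on myosin by the Ppp1r12 proteins removes phosphate from the myosin light chain.

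Counts are given on segments of at most 500 bp, each cut from the end of a transcript's 3′UTR, and a gene can have several. In this text the gene end stands for the end of the most distal segment that the count table holds for a gene. It can lie before the annotated end of the gene, as in Ppp2cb and Ppp1r12a. Levels between genes were compared only on the 33 member segments of exactly 500 bp that lie in the 3′UTR and overlap no other segment. The highest in CTRL was Ppp1r3c, a glycogen-targeting subunit, at 763 ± 185 CPM (SD, n = 5), followed by Ppp1cb, the β catalytic subunit of PP1, at 717 ± 144 CPM. These 2 levels overlapped. The muscle glycogen-targeting subunit Ppp1r3a followed at 544 ± 174 CPM and the myosin-targeting subunit Ppp1r12b at 339 ± 64.1 CPM. These are levels of single segments and not of whole genes. Another segment of Ppp1cb was the lowest of the 33, at 5.06 ± 1.77 CPM in CTRL. Among PP2A subunits, Ppp2r5a had 241 ± 102 CPM and Ppp2r2a 207 ± 17.7 CPM, against 8.56 ± 1.22 CPM for the catalytic Ppp2ca. All of the Ppp2r5a segment lies opposite Pacc1, from whose reads it cannot be told apart without strand. Ppp2cb, the PP2A catalytic gene with more counts, has only a 247-bp segment and is not in this comparison. Shares within a family, given below, are shares of counts on segments of unequal length, so they compare the groups and not the levels of genes.

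Since the oligonucleotide blocks miR-22, the members were searched for the seed match of this miRNA, the stretch of a 3′UTR that pairs with its bases 2 to 8. The mature miRNA is shown with its seed in capitals, followed by matches in 5 members whose values are described below, with the match to the seed, GGCAGCT on the sense strand, in capitals. The miRNA is from RefSeq and the sites are from GRCm39 (the longest 3′UTR annotated for a gene).
miR-22-3p: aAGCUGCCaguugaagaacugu
Ppp2r5b, chr19:6278105-6278127, minus strand: caggctccaggcGGCAGCTaggc
Ppp1r7, chr1:93298269-93298291, plus strand: tggagaggtataGGCAGCTagac
Ppp1r15b, chr1:133064676-133064698, plus strand: aaaacaaacactGGCAGCTgtcc
Ppp2r2d, chr7:138484684-138484706, plus strand: cgagcaggctcaGGCAGCTctac
Ppp1r12b, chr1:134682867-134682889, minus strand: ccttgagcccctGGCAGCTcagc

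Such a match was present in 10 of the 49 tested members (20.4%), a share close to that of all 7781 tested genes with a 3′UTR (1690, or 21.7%). Among the 10 members with a match, 2 were called higher (Ppp1r15b and Ppp2r5b) and 3 lower (Ppp1r7, Ppp2r2d and Ppp2r5c). Over all 1690 tested genes with a match, 214 were called higher and 312 lower. The median log2 fold change was -0.16 in members with a match and 0.05 in those without, against -0.01 and -0.04 over all genes. A match followed by an A, as in the first 2 sites above, was found in 2 members, and these had log2 fold changes of opposite sign (Ppp2r5b 0.49, Ppp1r7 -0.77). The Ppp1r7 value rests for 81.3% of its counts on a segment 20909 bp before the gene end. Its segment at the gene end was at 3.12 CPM in CTRL and 4.01 CPM in the ASO group, with too few counts for the test. Of the 12 sites in tested members, 4 lie inside a counted segment. That of Ppp2r2d lies in segments with 0.285% and 3.13% of the gene's counts, and 87.2% are on a segment 13273 bp before the gene end. A gene's fold change was thus not always measured on the 3′UTR that holds the match. A match is a description of the sequence and was not tested as a site of repression.

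Summed over segments, 5 of the 49 tested members were called higher and 9 lower in the ASO group (edgeR quasi-likelihood test, adjusted p under 0.05). Among all 7813 tested genes, 11.8% were called higher and 17.4% lower, and the shares in the members were 10.2% and 18.4%, so the members did not stand out by number. Their median log2 fold change was -0.02, against -0.03 for all genes. In 3 members all 5 ASO libraries were above all 5 CTRL libraries and in 8 members below them, against 7.97% and 13.4% of all genes. The split between directions moved with scaling, to 2 higher and 13 lower with total counts, which lowered the median of all genes by 0.18, and to 7 higher and 8 lower with either RLE size factors or upper-quartile scaling.

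**Figure D1:**
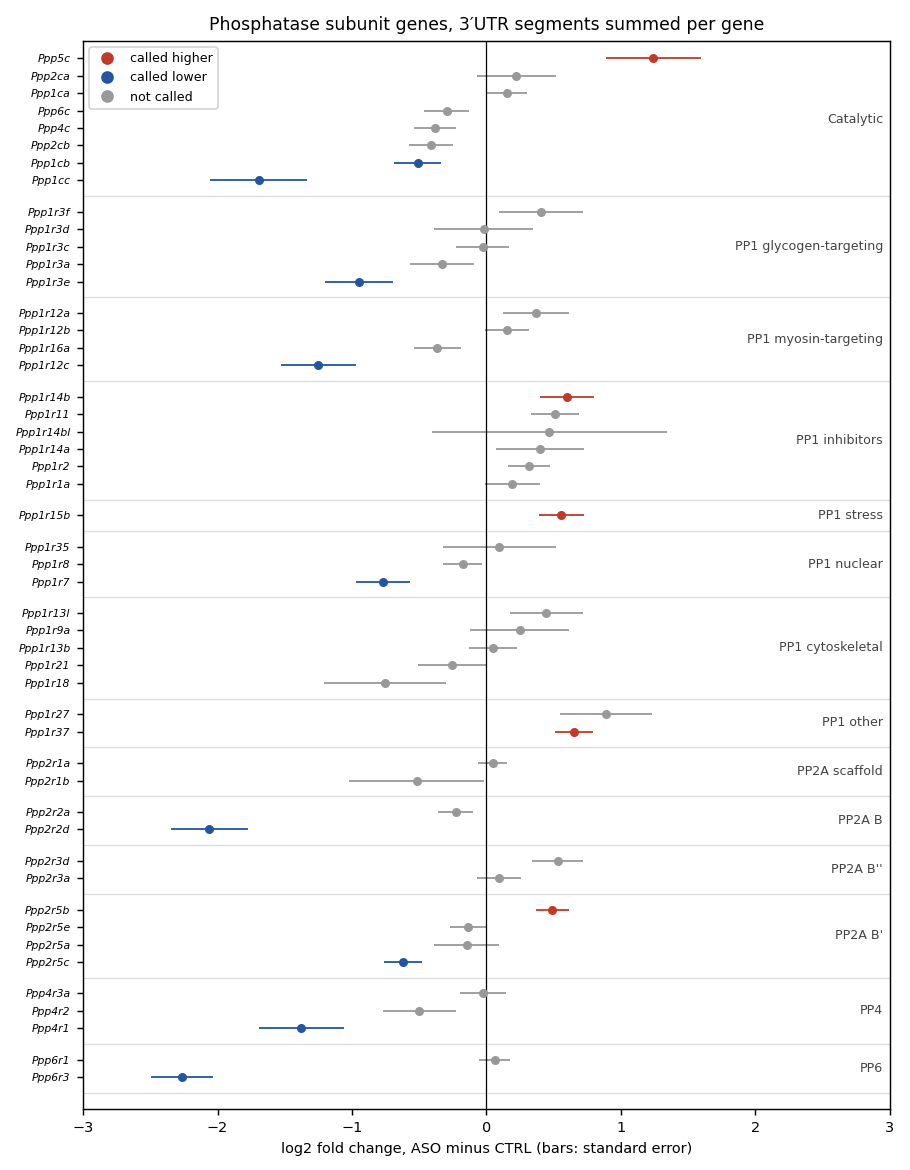
Log2 fold change (ASO minus CTRL, horizontal axis) of the 49 tested subunit genes, grouped by family, with bars for the standard error and colours for the call at an adjusted p of 0.05. The PP1 cytoskeletal family name is a working label. Called genes lie on both sides of 0 within the catalytic and PP2A B' families, and the lowest values are those of Ppp6r3 (-2.26) and Ppp2r2d (-2.06).

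Of the 8 catalytic genes, Ppp5c was called higher and Ppp1cb and Ppp1cc lower, and the median of the 8 was -0.34. Ppp5c, which encodes PP5, was at 7.07, 11.2, 2.96, 6.49 and 3.37 CPM in CTRL and at 10.6, 11.9, 21.6, 14.2 and 16.0 CPM in the ASO group. Only CTRL replicate 2 reached into the range of the ASO libraries. The log2 fold change was 1.24 ± 0.35 (SE, adjusted p = 0.019). It rests on 62 CTRL and 169 ASO counts, on the 113 bases of its last segment that overlap no other, and without ASO replicate 3 the call was lost (log2 fold changes of 1.06 to 1.57 over the 10 fits that leave out a library).

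Ppp1cb had 1119, 1085, 787, 1068 and 1039 CPM in CTRL and 590, 977, 772, 655 and 580 CPM in the ASO group. The groups overlapped through CTRL replicate 3, the lowest of its group. Its log2 fold change of -0.51 ± 0.17 (adjusted p = 0.041) lost the call in 8 of the 10 fits that leave out a library, with adjusted p-values between 0.011 and 0.43 over its 21 alternatives. Ppp1cc, the γ catalytic subunit of PP1, had 7.86 to 12.98 CPM in CTRL and 1.25 to 5.79 CPM in the ASO group, without overlap. It fell by 1.69 on the log2 scale (SE 0.36, adjusted p = 0.0044), on 100 CTRL and 35 ASO counts.

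The third PP1 catalytic gene, Ppp1ca, was at 354 ± 25.4 CPM in CTRL and 393 ± 75.9 CPM in the ASO group (log2 fold change 0.15 ± 0.15, adjusted p = 0.48), and 225 bases of its segment lie opposite Rad9a, from whose reads they cannot be told apart without strand. Within PP1, Ppp1cb made up 70.0% to 75.6% of the catalytic counts in CTRL and 55.0% to 73.8% in the ASO group. For PP2A, Ppp2cb had 65.7 to 83.9 CPM in CTRL and 36.4 to 65.1 CPM in the ASO group, so the groups did not overlap, yet the adjusted p was 0.075 (log2 fold change -0.41 ± 0.16). All 247 bp of its only segment lie opposite Ubxn8, from whose reads it cannot be told apart without strand. Its partner Ppp2ca stood at 8.56 ± 1.22 and 10.0 ± 4.04 CPM (log2 fold change 0.22 ± 0.29, adjusted p = 0.60). Ppp2cb supplied 89.5% ± 1.53 of the PP2A catalytic counts in CTRL and 84.0% ± 8.30 in the ASO group. The difference was -5.48 percentage points, and -1.95 without ASO replicate 3. Ppp4c was at 72.5 ± 13.8 and 55.5 ± 6.90 CPM (log2 fold change -0.38 ± 0.16, adjusted p = 0.085) and Ppp6c at 52.4 ± 6.54 and 42.8 ± 9.21 CPM (-0.29 ± 0.17, adjusted p = 0.21). Neither passed the test.

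Of the 41 tested regulatory genes, 4 were called higher and 7 lower, with a median log2 fold change of 0.05. The 4 higher ones were Ppp1r37, Ppp1r14b, Ppp1r15b and Ppp2r5b. Ppp1r37, a PP1 regulatory subunit, had 182, 159, 129, 163 and 140 CPM in CTRL and 221, 215, 262, 220 and 296 CPM in the ASO group. Every ASO library was above every CTRL library, and the log2 fold change of 0.65 ± 0.14 (adjusted p = 0.0055) kept its call without any single library.

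Ppp2r5b, a B' subunit of PP2A, was also separated, with 93.9 to 109 CPM in CTRL and 120 to 165 CPM in the ASO group, and rose by a log2 of 0.49 ± 0.12 (adjusted p = 0.011). The call was lost with total counts (0.30) and with only the most distal segments (0.24), and its adjusted p was 0.0011 to 0.27 over 21 alternatives. Ppp1r15b, which directs PP1 to the phosphorylated initiation factor eIF2α, had 36.8 to 64.7 CPM in CTRL and 65.2 to 81.2 CPM in the ASO group (log2 fold change 0.56 ± 0.17, adjusted p = 0.024). The groups came close, at 64.7 and 65.2 CPM, and the call was lost without ASO replicate 3, CTRL replicate 4 or CTRL replicate 5 (log2 fold changes of 0.47 to 0.68), as with total counts, with only the most distal segments and with only canonical 3′UTR segments (adjusted p of 0.0080 to 0.27 over 22 alternatives). For Ppp1r14b, an inhibitor of myosin phosphatase, CTRL libraries were between 116 and 208 CPM and ASO libraries between 192 and 315 CPM, which overlap, and its call (0.60 ± 0.20, adjusted p = 0.041) was lost in 6 of the 10 fits that leave out a library.

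**Figure D2:**
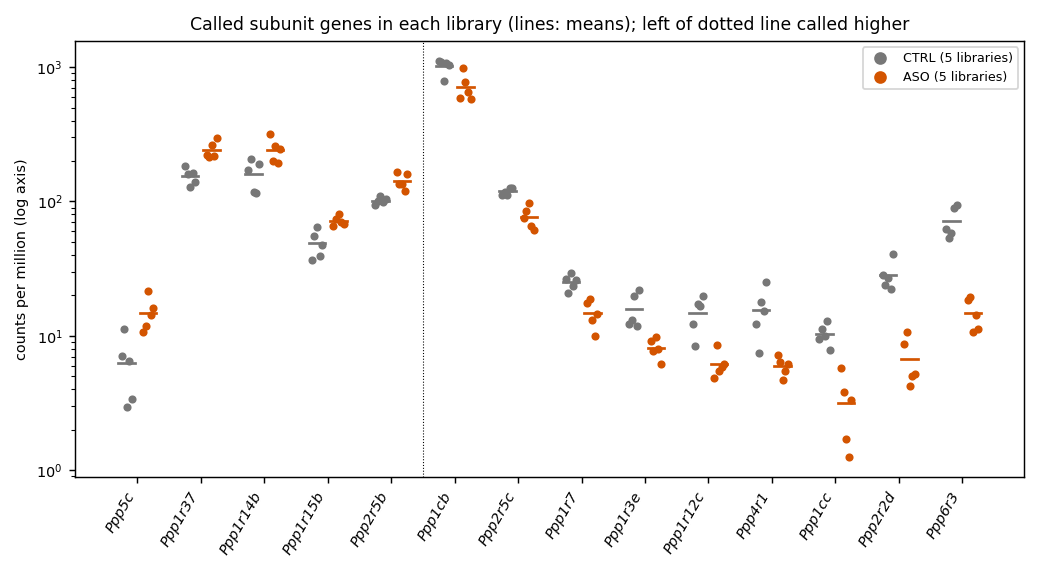
CPM on a log axis of the 14 called subunit genes in each of the 5 CTRL (grey) and 5 ASO (orange) libraries, with lines for the means, the 5 genes called higher on the left. Ppp6r3 and Ppp2r2d show wide gaps between the groups, while Ppp5c, Ppp1r14b, Ppp1cb and Ppp1r12c overlap.

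The inhibitor subunits of PP1 had positive log2 fold changes in 6 of 6 tested genes, between 0.19 and 0.60, of which only Ppp1r14b was called. With total-count scaling the lowest of them, Ppp1r1a, was at -0.00. Of the 6 genes 5 were counted mainly within 500 bp of the end of their most distal segment. That end is not always the annotated one, as in Ppp1r2 and Ppp1r14a. Over all segments placed in this way the median was 0.22. In the fit of most distal segments alone, which was scaled on its own, Ppp1r1a was at -0.07 with the same counts, and Ppp1r11 at -0.14. Ppp1r11, inhibitor 3, was at 50.1 ± 10.7 CPM in CTRL and 71.3 ± 14.98 CPM in the ASO group (log2 fold change 0.51 ± 0.18, adjusted p = 0.052), and Ppp1r2, inhibitor 2, at 43.0 ± 8.36 and 53.6 ± 5.59 CPM (0.32 ± 0.16, adjusted p = 0.15). Ppp1r27, an ankyrin-repeat protein, had 792, 498, 189, 284 and 294 CPM in CTRL and 539, 609, 852, 1078 and 737 CPM in the ASO group. CTRL replicate 1 lay above 3 of the ASO libraries, and the log2 fold change of 0.89 ± 0.34 missed the threshold (adjusted p = 0.068). Without that library it was 1.27 and was called.

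Among the glycogen-targeting subunits 1 of 5 tested genes was called, Ppp1r3e, which fell by 0.95 on the log2 scale (SE 0.25, adjusted p = 0.014), from 11.8 to 21.9 CPM in CTRL to 6.13 to 9.73 CPM in the ASO group. The abundant Ppp1r3c was at 763 ± 185 and 749 ± 153 CPM (log2 fold change -0.03 ± 0.20, adjusted p = 0.93), and Ppp1r3a at 544 ± 174 and 432 ± 110 CPM (-0.33 ± 0.23, adjusted p = 0.31). Of the myosin-targeting group, Ppp1r12c fell by 1.25 on the log2 scale (SE 0.28, adjusted p = 0.0058). It was at 8.39 to 19.7 CPM in CTRL and 4.83 to 8.497 CPM in the ASO group, overlapping by a narrow margin. Ppp1r12b, the muscle form, was at 402 ± 44.9 and 446 ± 98.8 CPM (0.15 ± 0.16, adjusted p = 0.51).

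Ppp1r7, a nuclear PP1 regulator, was at 21.0 to 29.2 CPM in CTRL and 10.0 to 18.7 CPM in the ASO group, without overlap, and fell by 0.77 on the log2 scale (SE 0.20, adjusted p = 0.013). It lost the call when all libraries were drawn down to equal depth (-0.65, adjusted p = 0.063). Ppp1r9a, Ppp1r18, Ppp1r13b, Ppp1r13l and Ppp1r21 were grouped as PP1 cytoskeletal, a working label that need not hold for each of them. Of these 5 tested genes 0 were called by edgeR, DESeq2 or limma-voom, and 0 had an unadjusted p under 0.05 in edgeR.

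Both PP2A scaffold genes missed the threshold. Ppp2r1a was at 383 ± 17.7 CPM in CTRL and 395 ± 21.5 CPM in the ASO group (log2 fold change 0.05 ± 0.11, adjusted p = 0.78). Ppp2r1b was at 38.6 ± 36.6 and 26.9 ± 11.2 CPM (-0.52 ± 0.50, adjusted p = 0.46), and without CTRL replicate 3, at 103 CPM, its fold change turned to 0.26.

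The B subunit Ppp2r2d had 28.3, 23.8, 26.7, 22.4 and 40.4 CPM in CTRL and 8.69, 10.6, 4.23, 5.01 and 5.19 CPM in the ASO group. It fell by 2.06 on the log2 scale (SE 0.28, adjusted p = 0.00044), with no overlap, whereas the abundant Ppp2r2a of the same family was at 234 ± 22.8 and 200 ± 25.4 CPM (-0.23 ± 0.13, adjusted p = 0.21). The share of Ppp2r2d in the family's counts went from 8.5% to 15.2% in CTRL to 2.44% to 4.36% in the ASO group. Of the Ppp2r2d counts 87.2% lie on a mainly intronic segment 13273 bp before the gene end, and its 3′UTR segments had too few for the test. Ppp2r2a had 89.9% of its counts on a 3′UTR segment. The shares thus compare unlike places in the 2 genes. Of the B' subunits, Ppp2r5c had 112 to 127 CPM in CTRL and 61.8 to 97.3 CPM in the ASO group and fell by 0.62 on the log2 scale (SE 0.14, adjusted p = 0.0064), in the opposite direction to Ppp2r5b. Ppp2r5a was at 293 ± 129 and 265 ± 37.5 CPM (-0.15 ± 0.24, adjusted p = 0.68), with CTRL replicate 3 at 520 CPM, and was called lower with opposite-strand overlaps left out, which leaves its intron segment (-1.74, adjusted p = 0.0031). Ppp2r5e was at 123 ± 11.7 and 112 ± 16.5 CPM (-0.13 ± 0.13, adjusted p = 0.47). Ppp2r3d, a B'' subunit, was at 20.4 ± 3.07 and 29.5 ± 5.88 CPM (0.53 ± 0.19, adjusted p = 0.053).

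Of the 3 tested PP4 regulatory genes, Ppp4r1 fell by 1.38 on the log2 scale (SE 0.31, adjusted p = 0.0066), from 7.46 to 25.3 CPM in CTRL to 4.65 to 7.24 CPM in the ASO group. The others were Ppp4r2, at 17.4 ± 2.79 and 12.3 ± 4.87 CPM (-0.50 ± 0.27, adjusted p = 0.18), and Ppp4r3a, at 81.9 ± 7.74 and 80.3 ± 19.3 CPM (-0.03 ± 0.17, adjusted p = 0.92).

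The PP6 regulatory subunit Ppp6r3 had the lowest log2 fold change of all 49 members. Its levels were 62.3, 53.2, 57.8, 89.7 and 93.8 CPM in CTRL and 18.3, 19.5, 10.6, 14.2 and 11.3 CPM in the ASO group, far apart, and it fell by 2.26 on the log2 scale (SE 0.23, adjusted p = 0.00011). Ppp6r1 was at 126 ± 8.19 and 132 ± 13.1 CPM (0.06 ± 0.12, adjusted p = 0.72). Ppp6r3 therefore made up 35.6% ± 4.68 of the PP6 regulatory counts in CTRL and 10.2% ± 3.21 in the ASO group. Ppp6r2 had no counts in any library.

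The segments show where in a gene these counts lay. Of the 72 member segments with enough counts, 39 lie within 500 bp of the gene end as defined above. Of these, 6 were called higher and 0 lower by edgeR, with 1 lower at an unadjusted p under 0.05. The other 33 lie further upstream, and of these 2 were called higher and 19 lower. The median log2 fold change was 0.19 near the gene end and -0.89 upstream. This division ran through the whole table, where 20.2% of 6088 segments near the gene end were called higher and 6.23% lower, and 5.05% of 4477 upstream segments higher and 51.4% lower, with medians of 0.22 and -0.77. The members followed the rest of the genes and were not particular in this.

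Each segment was placed against the canonical transcript of its gene in GENCODE M39 by the largest part of its bases. By this rule 12 tested member segments lie in introns, which are the last exons of shorter or alternative transcripts. The intron part ran from 76 of 139 bases in a segment of Ppp4c to all 348 in that of Ppp1r2. Counts on intron segments are therefore not all on intron bases. Of the 12 segments 8 were called lower and 0 higher, also at an unadjusted p under 0.05, and their median log2 fold change was -1.14. Over all genes 51.7% of the 1806 intron segments were called lower and 7.7% higher. Of the 52 member segments in canonical 3′UTRs, 7 were called higher and 7 lower, with a median of 0.15, against 15.4% and 18% of 7761 segments. The share of all counts on intron segments was 10.7% to 13.6% in the CTRL libraries and 8.47% to 9.49% in the ASO libraries, and for the members 3.74% to 6.93% and 1.96% to 2.90%, without overlap in either case. A change in the RNA, in RNA integrity and in coverage along transcripts cannot be told apart here, and their part in the results was not tested.

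**Figure D3:**
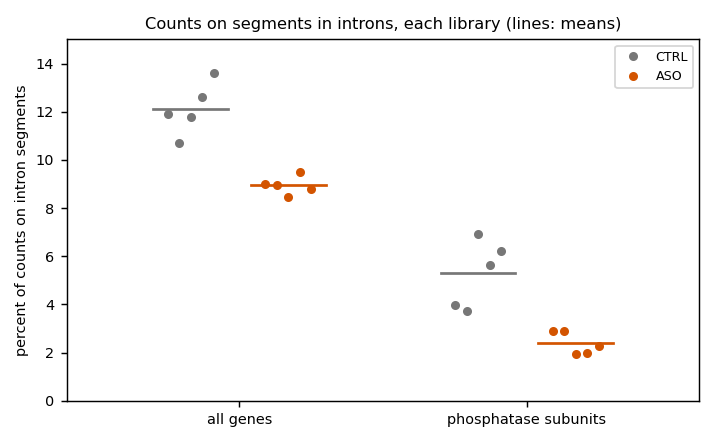
Percent of the counts of each library on segments whose largest part lies in an intron of the canonical transcript. It is shown for all genes and for the phosphatase subunits, in 5 CTRL (grey) and 5 ASO (orange) libraries with lines for the means. In both sets every ASO library is below every CTRL library.

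Several genes had segments that moved apart. Ppp1cb is the clearest case among catalytic genes. Its main segment, 500 bp of 3′UTR at chr5:32649601-32650100, held 80.5% of the gene's counts, ends 24677 bp before the annotated gene end and had 717 ± 144 CPM in CTRL and 658 ± 157 CPM in the ASO group (log2 fold change -0.13 ± 0.20, adjusted p = 0.64). A 69-bp segment in coding exon sequence of the canonical transcript, chr5:32648315-32648383, held 18.8% and had 228, 238, 245, 387 and 387 CPM in CTRL against 58.4, 85.8, 13.1, 46.8 and 50.9 CPM in the ASO group. It fell by 2.54 on the log2 scale (SE 0.37, adjusted p = 0.00021), with no overlap, while its 3′UTR did not pass the test. Over canonical 3′UTR segments alone the log2 fold change of Ppp1cb was -0.21 (adjusted p = 0.43).

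The scaffold gene Ppp2r1a, level as a whole, was split in the same way. Its terminal 3′UTR segment, chr17:21185734-21186178, had 289 to 347 CPM in CTRL and 355 to 415 CPM in the ASO group, which do not overlap (0.25 ± 0.13, adjusted p = 0.14). An intron segment 7132 bp before the gene end, chr17:21178547-21179046, had 52.2 to 76.4 CPM in CTRL and 7.61 to 22.7 CPM in the ASO group and fell by 1.996 on the log2 scale (SE 0.25, adjusted p = 9.1e-05). For Ppp6r1 the terminal 3′UTR segment, chr7:4634494-4634993, rose from 74.3 ± 8.94 to 117 ± 16.4 CPM (0.65 ± 0.15, adjusted p = 0.0040), while a coding exon segment 9801 bp upstream, chr7:4644295-4644652, went from 51.9 ± 13.3 to 14.8 ± 3.77 CPM (-1.80 ± 0.23, adjusted p = 9.3e-05). The gene's sum, at 0.06, shows neither.

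Ppp1r12b had 339 ± 64.1 and 438 ± 99.3 CPM on its terminal segment, chr1:134682396-134682895 (0.37 ± 0.19, adjusted p = 0.13), which contains a seed match shown above. On a 3′UTR segment 5311 bp upstream, chr1:134687707-134688206, it had 29.8 to 114 CPM in CTRL and 4.35 to 8.88 CPM in the ASO group and fell by 3.16 on the log2 scale (SE 0.40, adjusted p = 8.6e-05). Ppp2r5a showed no shift at its terminal segment (0.05 ± 0.24, adjusted p = 0.88), all of which lies opposite Pacc1, and fell by 1.78 (SE 0.35, adjusted p = 0.0015) on an intron segment, where CTRL libraries had 28.0 to 102 CPM and ASO libraries 8.04 to 19.3 CPM. Ppp2r5e likewise fell only on its intron segment among 3 tested, by 1.57 (SE 0.32, adjusted p = 0.0020), and Ppp6c only on the upstream of 2 tested 3′UTR segments, by 0.89 (SE 0.21, adjusted p = 0.0043), with its terminal segment at 31.6 ± 6.98 and 31.9 ± 8.06 CPM.

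**Figure D4:**
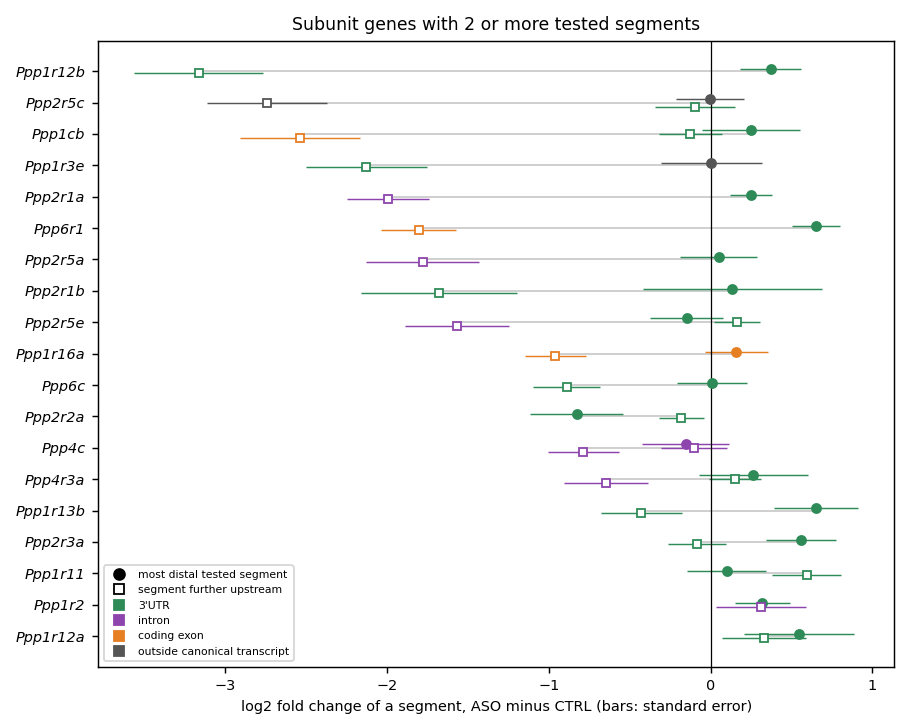
Log2 fold change (ASO minus CTRL) with standard error of every tested segment in the 19 subunit genes that have 2 or more, with a filled circle for the most distal and open squares for the others, coloured by place in the canonical transcript. The circles lie near or above 0 except in Ppp2r2a (-0.83), and the squares reach down to -3.16 in Ppp1r12b.

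**Figure D5:**
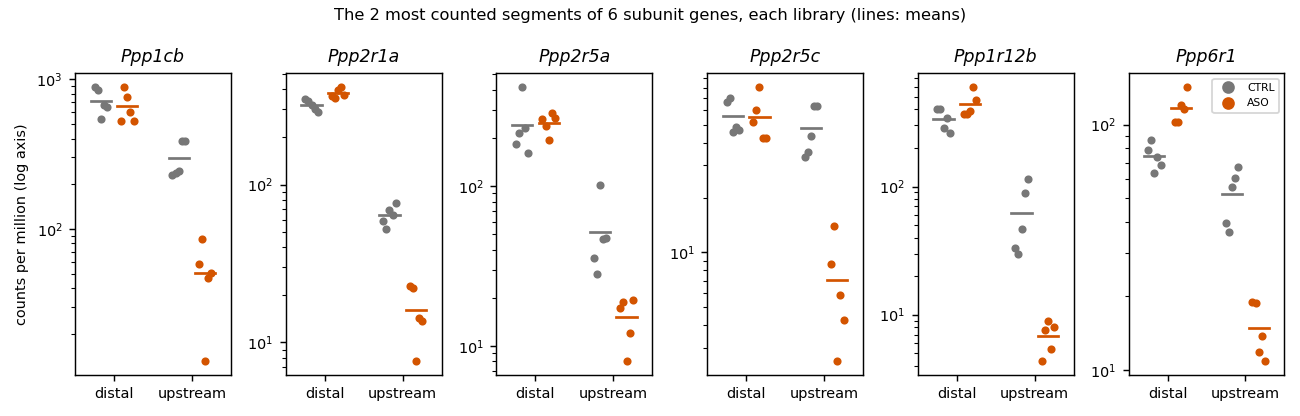
CPM on a log axis in each CTRL (grey) and ASO (orange) library for the 2 most counted segments of 6 subunit genes, the distal on the left and the upstream on the right of each panel, with lines for the means. On the upstream segments all 5 ASO libraries are below all 5 CTRL libraries in each of the 6 genes.

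In 17 members a distal and an upstream tested segment at least 500 bp apart could be compared. The upstream segment had the lower log2 fold change in 14 of them (82.4%), against 1768 of 2021 genes (87.5%) in the whole table. The medians were 0.13 on the distal and -0.89 on the upstream segment for the members, and 0.21 and -0.96 for all genes. The 3 exceptions were Ppp2r5e, Ppp2r2a and Ppp1r11. In Ppp2r2a the segment 618 bp before the gene end fell by 0.83 (SE 0.29, adjusted p = 0.035), and the more abundant one 1618 bp before it was at -0.18 ± 0.14 (adjusted p = 0.32). In Ppp1r11 it was the upstream 62-bp segment that rose, by a log2 of 0.59 (SE 0.21, adjusted p = 0.040).

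The 9 members called lower as sums can be read against this. Ppp4r1 and Ppp1r12c were counted on a single 500-bp segment for 99.1% and 100% of their counts, Ppp2r2d for 87.2% and Ppp1r7 for 81.3%. These segments lie mainly in introns, with 314, 418, 405 and 436 intron bases in this order. Ppp6r3 was counted on 266 bases of 3′UTR, chr19:3506734-3506999, that end 1806 bp before the gene end, and Ppp1cc on 500 bases, chr5:122312239-122312738, that end 598 bp before it. In Ppp2r5c the segment at the gene end was at 55.7 ± 11.8 CPM in CTRL and 55.6 ± 16.0 CPM in the ASO group (-0.00 ± 0.21, adjusted p = 0.99), and the fall lay on a segment 2202 bp upstream (47.8 ± 14.6 and 7.07 ± 4.499 CPM, -2.74 ± 0.37, adjusted p = 0.00013). Both of these segments lie outside the canonical transcript, and over its canonical 3′UTR Ppp2r5c was at -0.19 (adjusted p = 0.59). In Ppp1r3e the segment at the gene end was at 5.90 ± 1.96 and 5.95 ± 1.57 CPM, and that 2916 bp upstream went from 9.85 ± 3.36 to 2.17 ± 1.11 CPM (-2.13 ± 0.37, adjusted p = 0.00071). Here the segment at the gene end lies outside the canonical transcript, and the upstream one, which fell, is the canonical 3′UTR (-2.23, adjusted p = 0.0018, in the fit of such segments alone). In Ppp1r7 the segment at the gene end had too few counts for the test (31 in CTRL, 46 in the ASO group), at 3.12 ± 1.64 and 4.01 ± 2.01 CPM, and the fall lay on the intron segment (22.1 ± 4.04 and 10.8 ± 4.36 CPM, -1.04 ± 0.28, adjusted p = 0.0098). Of the 9 genes only Ppp2r5c and Ppp1r3e had a segment within 500 bp of the gene end with enough counts to be tested. Of the 5 genes called higher, Ppp5c, Ppp1r15b, Ppp1r37 and Ppp2r5b were counted wholly on the segment at the gene end. Ppp1r14b was counted for 98.9% on a segment that ends 75 bp before its most distal one.

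When each gene was represented by its most distal segment alone, and scaling was done on these, 38 members could be tested, of which 0 were called higher by edgeR (3 at an unadjusted p under 0.05) and 3 lower. The 3 were Ppp1cc (-1.93, adjusted p = 0.0051), Ppp2cb (-0.66, adjusted p = 0.023) and Ppp1r12c (-1.51, adjusted p = 0.0064), of which Ppp1cc and Ppp1r12c have counts only on the upstream segment described above. All 3 have the same counts here as in the sums over segments. Ppp1r37 was then at 0.40 (adjusted p = 0.057) and Ppp6r1 at 0.40 (adjusted p = 0.050). Over all genes 312 of 5504 were called higher and 493 lower in that fit. For canonical 3′UTR segments alone, 4 members were called lower, Ppp6r3, Ppp1cc, Ppp1r3e and Ppp2cb, and 4 higher, Ppp5c (1.15, adjusted p = 0.029), Ppp1r37 (0.56, adjusted p = 0.013), Ppp2r5b (0.40, adjusted p = 0.043) and Ppp6r1 (0.56, adjusted p = 0.010). Over all genes 642 of 6564 were called higher and 923 lower in that fit.

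Partners of these phosphatases outside the Ppp symbols were read in the same way. Their counts of called genes stand beside 11.8% higher and 17.4% lower over all tested genes. Over all upstream segments 51.4% were called lower, and Ankrd28, Ankrd52, Slmap, Tiprl and Akap1 were counted mainly on such segments. Of the PP6 ankyrin-repeat partners both tested genes were called lower, Ankrd28 from 83.7 ± 27.2 to 19.4 ± 3.97 CPM (-2.10 ± 0.23, adjusted p = 0.00014) and Ankrd52 from 111 ± 29.7 to 49.9 ± 9.24 CPM (-1.15 ± 0.20, adjusted p = 0.0014), and neither was counted near its gene end. Of 16 tested PP2A partners 2 were called higher and 6 lower, with a median of -0.31. Slmap, a member of the STRIPAK complex of PP2A, fell by 1.84 (SE 0.20, adjusted p = 0.00012), and Mob4 of the same complex by 0.56 (SE 0.12, adjusted p = 0.0056), the latter with -0.06 on its terminal segment. Tiprl, which binds PP2A-type catalytic subunits, fell by 1.48 (SE 0.27, adjusted p = 0.0018), with 99.8% of its counts on an intron segment. Of 8 tested PP1 partners 2 were higher and 2 lower. The nuclear partner Wdr82 rose by a log2 of 0.40 (SE 0.12, adjusted p = 0.022), and Akap1, which anchors PP1 and protein kinase A at mitochondria, fell by 2.44 (SE 0.27, adjusted p = 0.00014) on a single intron segment. Shoc2, the scaffold that joins PP1 to Ras proteins, went from 66.4 ± 14.97 to 32.0 ± 5.17 CPM (-1.05 ± 0.18, adjusted p = 0.0016), with -0.35 on its 3′UTR segment (adjusted p = 0.13) and -2.62 on an intron segment.

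Among enzymes that PP1 acts on, 2 of 8 tested glycogen genes were called higher and 3 lower. For this list and those that follow, 11.8% and 17.4% are the shares over all tested genes. Glycogen synthase, Gys1, fell by 0.79 as a sum (SE 0.15, adjusted p = 0.0028), with a terminal segment at 0.06 (adjusted p = 0.80) and 2 upstream segments at -1.94 and -2.44. Phkb, a subunit of phosphorylase kinase, fell by 4.07 (SE 0.47, adjusted p = 0.00016), and its terminal segment by 2.77 (adjusted p = 0.00031). In the myosin light chain list 2 of 7 tested genes were called higher and 1 lower, the muscle kinase Mylk2 at 1665 ± 259 and 2853 ± 675 CPM (0.78 ± 0.20, adjusted p = 0.011). Rock2, a kinase that inhibits myosin phosphatase, rose by a log2 of 0.73 (SE 0.18, adjusted p = 0.0094), and the kinase Mylk4 fell by 1.06 (SE 0.28, adjusted p = 0.014). In the eIF2α list Atf4, the transcription factor translated when eIF2α is phosphorylated, was at 115 ± 15.9 CPM in CTRL and 255 ± 76.2 CPM in the ASO group (1.15 ± 0.19, adjusted p = 0.0013), and was the only 1 of 5 tested genes called. The eIF2α kinases Eif2ak1 (0.36 ± 0.18, adjusted p = 0.15) and Eif2ak3 (-0.55 ± 0.29, adjusted p = 0.18) missed the threshold. Of the 14 tested metal-dependent phosphatases, a separate family, 2 were called higher and 1 lower, with a median of 0.08, and Ppm1j rose by a log2 of 1.00 (SE 0.20, adjusted p = 0.0030). The other called higher was Ilkap (0.67 ± 0.14, adjusted p = 0.0047). Ppm1g, counted on a coding exon segment alone, went from 36.1 ± 11.4 to 10.8 ± 5.09 CPM without overlap (-1.74 ± 0.33, adjusted p = 0.0026).

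The 26 members that were not tested are not shown to be absent. Of these, 18 had 0 counts in all libraries, and 7 of the 18 are covered by other segments over their whole length, where the counting assigns no reads: Ppp1r3g, Ppp1r16b, Ppp1r14c, Ppp1r15a, Ppp1r9b, Ppp2r2b and Ppp2r5d. Ppp1r15a, the stress-induced counterpart of Ppp1r15b, is thus not measured by this table. The 8 others had at most 30 counts over the 10 libraries, the most in Ppp2r2c, a B subunit known from brain.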

How the data were processed

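GAS RNA of 5 ASO and 5 CTRL mice was prepared with a stranded mRNA kit. Per the labels and the study's methods, the authors used fastp for trimming, STAR for alignment (GRCm39) and featureCounts for read pairs (Gencode M25), and kept only the final 500 bp of 3′UTRs. No strand option is named. The deposited table holds unnormalized counts on 52423 segments, of which 52361 were matched by transcript to GENCODE M39, leaving 62 with 0.0197% of the counts. The 11523 segments with coordinates identical to another one have 0 counts. Its 4 other per-sample columns were not used. Library totals of 1606909 to 2632560 counts limit the precision of low genes.

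Segments were summed per gene and tested with edgeR 4.0.16 in R 4.3.3 (TMM normalization, filterByExpr, quasi-likelihood test, Benjamini-Hochberg adjustment over all 7813 tested genes, threshold 0.05). CPM values use TMM-scaled library sizes. DESeq2 1.42.0 and limma-voom (limma 3.58.1) were alternatives, with other scalings, filters, segment choices and each library left out. Segments were also fitted singly, with the gene table's scaling, and placed by the largest part of their bases against the Ensembl canonical transcript. Both were chosen after seeing the data. On simulated data for the ASO and CTRL comparison, edgeR recovered 35 of 87 genes with a log2 change of 1 and 100 of 113 with a change of 2, with 7 false calls among 7635 genes. Python 3.11.15 was used for the rest. The miR-22 sequence is from RefSeq. Coordinates are 1-based on GRCm39.

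Members and lists were chosen with earlier results of these data known. Named are all catalytic, scaffold, PP4 and PP6 genes tested, every other called member and up to 3 genes per partner list by adjusted p. A gene of the glycogen list that this rule names is not reported here. Other members were chosen as examples after their values were seen. The lists were PP1 partners, PP2A partners, PP6 ankyrin partners, metal-dependent phosphatases, glycogen enzymes, myosin light chain kinases and light chains, the eIF2α response and markers of muscle fibres and other cell types.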

Additional observations from a re-analysis of the deposited data

Results flagged for a closer look

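Levels of the 49 tested members were screened for libraries that stand apart from the other 4 of their group, in 98 groups in all, of which chance flags about 1 in 20. There were 5 such values, 4 of them in CTRL replicate 3. This library was the lowest of its group for Ppp1cb, at 787 CPM against 1039 to 1119 CPM in the others, and for the myosin-targeting Ppp1r12a, at 17.3 CPM against 36.8 to 42.7 CPM. It was the highest for the PP2A scaffold Ppp2r1b, at 103 CPM against 11.8 to 31.9 CPM, and for the B' subunit Ppp2r5a, at 520 CPM against 207 to 277 CPM. Without CTRL replicate 3, 4 members were called higher and 9 lower, against 5 and 9 with all libraries. Over the fits that leave out each library in turn, this one included, the counts were 2 to 7 higher and 8 to 9 lower. The fifth value was the lowest ASO library for Ppp4c, ASO replicate 3 at 43.6 CPM against 57.2 to 61.6 CPM.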

How the results depend on the processing

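The count of members called higher, 5, was 2 with total counts, 8 with DESeq2, 8 when a member was counted for any segment of its own and 0 with only the most distal segment. The count called lower, 9, was 3 with the most distal segment, 4 with canonical 3′UTR segments and 19 for any segment. For catalytic genes, 1 higher became 0 with at least 10 counts in every library, with the replicate block and with the most distal segment (0, 1 and 1 at an unadjusted p under 0.05), and 2 lower became 4 with total counts and 1 with RLE size factors, upper quartile, no filter, at least 10 counts, the replicate block and opposite-strand overlaps left out. For regulatory genes, 4 higher became 1 with total counts, 7 with DESeq2 and 0 with the most distal segment, and 7 lower became 1 with the most distal segment and 2 with canonical 3′UTR segments. The filter of at least 10 counts left Ppp5c and Ppp1cc untested, so their calls were not made there. The fit of most distal segments was also scaled on its own. Ppp5c, Ppp1r37, Ppp1r15b and Ppp2r5b have the same counts in both fits, and their log2 values went from 1.24, 0.65, 0.56 and 0.49 to 1.00, 0.40, 0.30 and 0.24, so these shifts come with the scaling. Ppp1cc, Ppp1r12c, Ppp1ca, Ppp2ca, Ppp2cb and Ppp1r1a also have the same counts in both fits. Their log2 values went from -1.69, -1.25, 0.15, 0.22, -0.41 and 0.19 to -1.93, -1.51, -0.093, -0.038, -0.66 and -0.071. These shifts come with the scaling as well. The cause of the other changes was not tested. With each library left out, members called higher were 2 to 7 (2 without ASO replicate 3, 3 without CTRL replicate 4) and lower 8 to 9, catalytic genes 0 to 1 and 1 to 2, regulatory genes 2 to 6 and 7 to 7, 3′UTR segments of members 4 to 9 higher (4 without CTRL replicate 4) and 6 to 8 lower, and intron segments 0 higher and 8 to 9 lower. Of the genes called higher 2 of 5 kept their call without any single library, and of those called lower 8 of 9.

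Replicate numbers did not pair the samples (correlations of same-numbered libraries -0.43 to 0.16), and in the fit with the replicate block 4 members were called higher and 8 lower.

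No called gene changed sign. Ppp2r5a, at -0.15, was called at -1.74 with opposite-strand overlaps left out, which leaves its intron segment. Among genes that missed the threshold, total counts gave Ppp1ca -0.027, Ppp1r12b -0.018, Ppp1r1a -0.0021, Ppp2r1a -0.13 and Ppp6r1 -0.13. The most distal segment gave Ppp1ca -0.093, Ppp2ca -0.038, Ppp1r1a -0.071, Ppp1r11 -0.14, Ppp2r1a -0.0026 and Ppp4r3a 0.016. Of these, Ppp1ca, Ppp2ca and Ppp1r1a have the same counts there as in the main fit. RLE, upper quartile, no filter, DESeq2 and opposite-strand overlaps left out gave 0.0065, 0.057, 0.0084, 0.013 and 0.0077 for Ppp1r3c and 0.0017, 0.060, 0.0033, 0.011 and 0.22 for Ppp4r3a, which was 0.029 at equal depth and 0.091 on canonical 3′UTR segments, where Ppp2r5e was 0.0012. With each library left out Ppp1r3c was -0.15 to 0.087, Ppp4r3a -0.11 to 0.091, Ppp2r1b -0.75 to 0.26 and Ppp2r5a -0.25 to 0.16.

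The share of Ppp2r5c in its family differed by -6.10 percentage points and by -1.77 with the most distal segment, which gave no share for Ppp1cb, Ppp6r3 and Ppp2r2d because it held under 10 counts. With each library left out the difference for Ppp2cb was -7.08 to -1.95 (the latter without ASO replicate 3, against -5.48), for Ppp2r1a -0.69 to 3.84 and for Ppp1r12b -0.23 to 1.497 percentage points. A seed match of 8 bases was found in 2 tested members and of 6 bases in 28. Depth limits the genes with few counts, such as Ppp1cc, Ppp5c, Ppp4r1 and Ppp1r12c.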
